A study of Mus musculus with 8 samples.

Results

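The guanylate-binding proteins of the mouse were examined as the 8 genes Gbp2, Gbp3, Gbp4, Gbp5, Gbp6, Gbp7, Gbp8 and Gbp9, chosen by gene symbol from the 32098 rows of the deposited expression table. All 8 were found, and all 8 were among the 13439 genes with at least 1 FPKM (fragments scaled by gene length and library size) in at least 4 of the 8 tumours, the set used for testing. The tumours had been grown from 4T1, a mouse mammary carcinoma line, and are labelled wild type. In 4 tumours (ICI 1, 2, 3 and 4) an immune checkpoint inhibitor was the only agent, and in 4 (RI 1, 2, 4 and 5) radiation was added to it, so that every tumour carries the inhibitor and no untreated tumour enters the comparison. The labels give no animal age, host strain, dose or name of the inhibitor, and the series text mentions 3 replicates a group where 4 are listed. The labels also leave unsaid whether each sample is a separate animal, so the p-values measure the spread between samples, which may be technical in part.

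Guanylate-binding proteins are large GTPases related to dynamins, and their genes are among the most strongly interferon-inducible genes of the mouse. Interferon gamma acts through the kinases JAK1 and JAK2 and switches on the transcription factor IRF1, and type I interferon acts through STAT2 and IRF9. The proteins assemble on pathogen vacuoles and bacterial surfaces, where they work with the immunity-related GTPases and promote caspase-driven inflammasome responses. In tumours they are mostly read as a trace of interferon acting on tumour cells, macrophages and other cells.

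The mouse genes lie in 2 clusters on GRCm38. Gbp5 (142493978 to 142522344), Gbp7 (142530342 to 142550149), Gbp3 (142560026 to 142573209) and Gbp2 (142620602 to 142638008) are on the plus strand of chromosome 3. Gbp8 (105014150 to 105139540), Gbp9 (105077630 to 105139539), Gbp4 (105115767 to 105139586) and Gbp6 (105270702 to 105293698) are on the minus strand of chromosome 5. GENCODE M21 gives each as protein coding. RefSeq promoter sequences on GRCm38.p6 were at hand for 4 members, all on chromosome 3. Each line below is the 250 bases before the annotated start on the plus strand, at chr3:142620413-142620662 (Gbp2), chr3:142559794-142560043 (Gbp3), chr3:142496684-142496933 (Gbp5) and chr3:142530086-142530335 (Gbp7). The part of these sequences in the differences between the groups was not tested. Capitals mark every match, on either strand, to the interferon-stimulated response element (GAAA, any 2 bases, GAAA) or to the gamma-activated site (TTC, any 3 bases, GAA), called ISRE and GAS.
Gbp2: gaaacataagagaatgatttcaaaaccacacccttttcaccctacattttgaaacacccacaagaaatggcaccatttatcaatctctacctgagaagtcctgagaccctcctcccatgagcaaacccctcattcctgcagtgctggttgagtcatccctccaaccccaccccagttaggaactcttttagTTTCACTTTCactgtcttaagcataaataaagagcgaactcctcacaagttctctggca
Gbp3: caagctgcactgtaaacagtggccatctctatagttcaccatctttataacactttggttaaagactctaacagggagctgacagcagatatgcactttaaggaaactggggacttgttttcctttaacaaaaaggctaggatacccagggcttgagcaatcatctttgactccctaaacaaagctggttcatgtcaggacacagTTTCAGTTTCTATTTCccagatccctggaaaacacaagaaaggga
Gbp5: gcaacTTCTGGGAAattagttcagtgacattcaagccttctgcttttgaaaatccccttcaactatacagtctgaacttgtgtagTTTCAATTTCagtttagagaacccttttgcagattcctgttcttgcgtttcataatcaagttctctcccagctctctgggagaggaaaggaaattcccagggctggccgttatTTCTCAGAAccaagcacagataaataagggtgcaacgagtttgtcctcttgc
Gbp7: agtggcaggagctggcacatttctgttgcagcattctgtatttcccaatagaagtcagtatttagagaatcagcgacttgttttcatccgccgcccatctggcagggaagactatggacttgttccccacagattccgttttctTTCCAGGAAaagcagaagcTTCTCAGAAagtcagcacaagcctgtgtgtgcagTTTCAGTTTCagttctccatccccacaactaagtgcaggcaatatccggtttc

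Each of the 4 windows held an ISRE match, against 3.44% of the 32851 RefSeq promoter windows of 300 bases (250 before and 50 after the start) searched in the same way. It lay 59 to 50 bases before the start in Gbp2, 53 to 44 in Gbp7 and 165 to 156 in Gbp5. Gbp3 had 2 overlapping matches, from 45 to 36 and from 39 to 30 bases before the start. A second annotated start of Gbp3 had neither motif in its window. GAS matches stood in Gbp5 (245 to 237 and 52 to 44 bases before the start) and in Gbp7 (106 to 98 and 87 to 79), against 8.30% of all windows. Of all windows 0.454% held both motifs. These are matches of letters and not measured binding sites.

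The members differed in level by more than an order of magnitude, and Gbp2 was first in each of the 8 tumours. On the FPKM scale, which is per length, Gbp2 averaged 78.8 ± 42.0 in ICI and 184 ± 75.5 in RI (SD, n = 4 each), and it made up 32.4% to 54.2% of the summed FPKM of the 8 members. Gbp3, Gbp4, Gbp7 and Gbp9 formed the middle of the order, with means over all 8 tumours of 42.5, 38.5, 25.8 and 20.5 FPKM. Gbp6, Gbp5 and Gbp8 were lowest, at 8.33, 8.04 and 7.74 FPKM. Neighbours in this order often changed places: Gbp3 lay above Gbp4 in 6 of 8 tumours, Gbp7 above Gbp9 in 5, Gbp6 above Gbp5 in 4 and Gbp5 above Gbp8 in 5. Gbp2 lay above Gbp3, Gbp4 above Gbp7, and Gbp9 above Gbp6 in all 8. The values rest on 579 fragments or more for each member in each tumour (Gbp8 in RI 2), so counting error is small beside the spread between tumours.

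**Figure D1:**
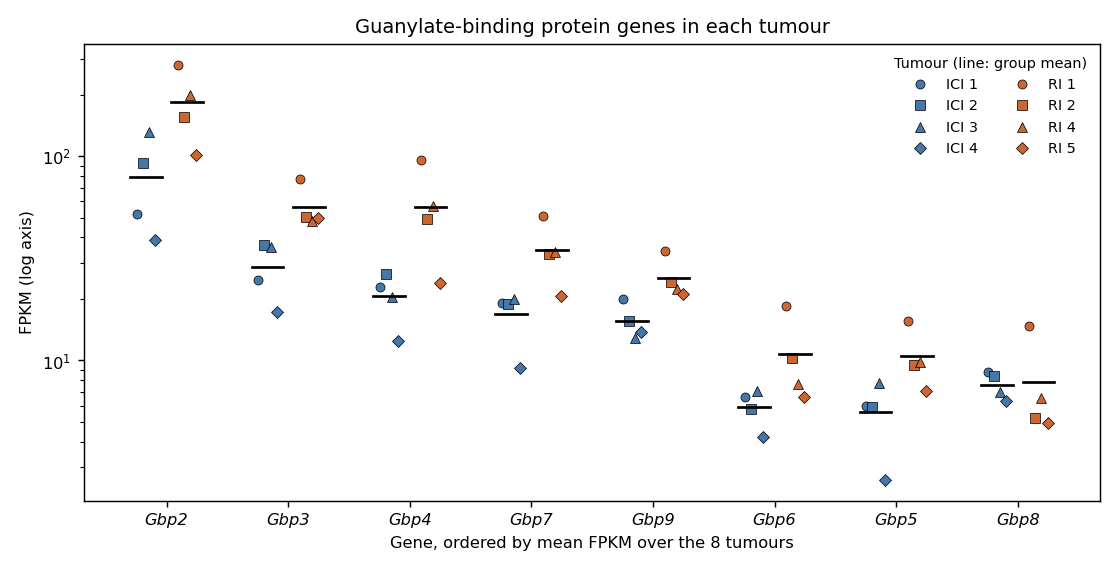
FPKM (log axis) of the 8 genes in each tumour, ICI in blue and RI in orange, with 1 symbol per tumour and a line at the group mean (n = 4). RI 1 is the highest tumour for all 8 genes, and the groups are apart for Gbp3, Gbp7 and Gbp9.

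Guanylate-binding proteins were mostly higher in the tumours that had radiation with the inhibitor. Mean FPKM was 1.63 to 2.74 times as high in RI for 7 of the 8 members, and 1.03 times as high for Gbp8, whose mean on the log2(FPKM + 1) scale was lower in RI. By limma over all genes with Benjamini-Hochberg adjustment Gbp3, Gbp4 and Gbp9 rose, 0 fell and 5 did not pass. Of all genes tested 11.1% were called higher and 6.60% lower in RI, and 51.1% had a positive difference. The median difference of the 8 members on the log2(FPKM + 1) scale was 0.91, against 0.01 for all genes tested, and 7 of the 8 had an unadjusted limma p under 0.05 with RI higher, as had 20.4% of all genes. All 4 RI values lay above all 4 ICI values for 3 members (Gbp3, Gbp7 and Gbp9), as they did for 16.7% of genes tested. In whole tumours, more cells that express a gene and more RNA per cell cannot be told apart.

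Gbp3 was at 24.8, 36.7, 35.9 and 17.3 FPKM in ICI 1, 2, 3 and 4, and at 77.3, 50.5, 47.9 and 49.6 in RI 1, 2, 4 and 5. The groups did not overlap, and RI 1 stood above 3 nearly equal RI tumours. The mean rose from 28.7 ± 9.32 to 56.3 ± 14.01 FPKM (SD, n = 4 each), or by 0.98 ± 0.26 (SE) on the log2 scale (adjusted p = 0.0339, limma). For Gbp9 the ICI values were 20.1, 15.7, 12.9 and 13.8 FPKM and the RI values 34.4, 24.1, 22.3 and 21.2. Here too every RI tumour was above every ICI tumour, with the narrowest gap between ICI 1 and RI 5. The mean rose from 15.6 ± 3.19 to 25.5 ± 6.04 FPKM (SD, n = 4 each), or by 0.67 ± 0.19 (SE) on the log2 scale (adjusted p = 0.0438, limma).

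Gbp4 had the largest difference of the 8 on the log2 scale and passed the threshold narrowly. It was at 23.0, 26.6, 20.4 and 12.4 FPKM in ICI 1, 2, 3 and 4 and at 95.4, 49.1, 57.2 and 24.1 in RI 1, 2, 4 and 5. RI 5 lay below ICI 2, so the groups overlapped in 1 tumour, while the other 3 RI tumours were above all ICI values. The mean rose from 20.6 ± 6.03 to 56.4 ± 29.5 FPKM (SD, n = 4 each), or by 1.304 ± 0.39 (SE) on the log2 scale (adjusted p = 0.0496, limma). In ICI Gbp3 had the higher value of these 2 genes in 4 of 4 tumours. In RI their means were 56.3 and 56.4 FPKM, and each was the higher one in 2 of 4 tumours.

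Gbp2 and Gbp5 belong to the members that carry a lipid anchor, added by prenylation at the C terminus, and Gbp7 has been linked to autophagy and to the phagocyte oxidase. Gbp2 was at 51.9, 93.0, 131 and 38.7 FPKM in ICI 1, 2, 3 and 4 and at 280, 156, 200 and 101 in RI 1, 2, 4 and 5. ICI 3 lay above RI 5, and a log2 difference of 1.28 ± 0.42 (SE) did not pass (adjusted p = 0.0649, limma). Gbp5, a much scarcer transcript, had the same overlap of ICI 3 with RI 5. It was at 5.97, 5.94, 7.78 and 2.60 FPKM with the inhibitor alone and at 15.6, 9.52, 9.85 and 7.07 with radiation, a log2 difference of 0.83 ± 0.30 (SE; adjusted p = 0.0808, limma). Gbp7 was at 19.1, 18.8, 19.99 and 9.20 FPKM in ICI 1 to 4 and at 51.2, 33.3, 34.02 and 20.6 in RI 1, 2, 4 and 5. The groups were apart only by the step from ICI 3 to RI 5, and the log2 difference of 1.00 ± 0.31 (SE) missed the threshold with adjusted p = 0.0526 (limma).

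Gbp6 and Gbp8 gave the smallest support for a difference. Gbp6 was at 6.62, 5.82, 7.05 and 4.20 FPKM in ICI 1, 2, 3 and 4 and at 18.4, 10.3, 7.69 and 6.62 in RI 1, 2, 4 and 5, so that RI 5 fell inside the ICI range. Its log2 difference was 0.68 ± 0.28 (SE; adjusted p = 0.115, limma). Of the words of 50 bases in the Gbp6 transcripts 70.7% also occur in transcripts of another gene, mostly Gm43302, so the counting could have split its fragments and its value is uncertain. Gbp8 was at 8.76, 8.35, 7.03 and 6.35 FPKM in ICI 1 to 4, and RI 1, 2, 4 and 5 had 14.7, 5.23, 6.56 and 4.93. RI 1 was the highest of all 8 tumours and RI 2 and RI 5 the lowest. The difference was -0.07 with a 95% interval from -0.73 to 0.58 (adjusted p = 0.877, limma). For Gbp8 18.1% of words of 50 bases are shared with another gene, and its GENCODE model shares 61 exon bases with those of Gbp4 and Gbp9. For the other 6 members the shared part is 1.44% to 12.7%.

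**Figure D2:**
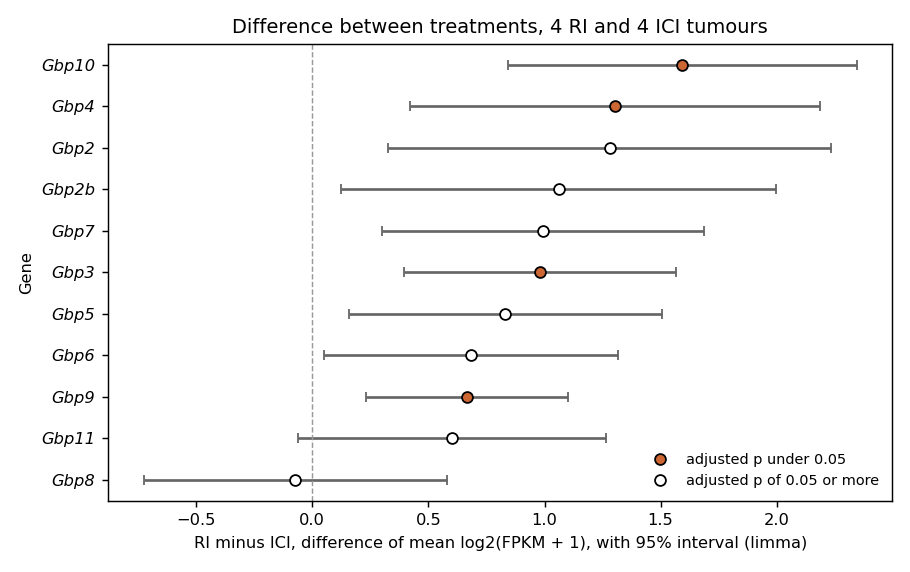
Difference of mean log2(FPKM + 1), RI minus ICI, with its 95% interval from limma, for the 8 members and the family genes Gbp2b, Gbp10 and Gbp11 (4 tumours a group). Filled points passed at adjusted p under 0.05; Gbp8 is the only point below 0.

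Compared with other members within the same tumours, Gbp8 showed the same contrast again. Its share of the summed FPKM of the 8 members was 5.46%, 3.96%, 2.90% and 6.07% in ICI 1 to 4, compared with 2.51%, 1.55%, 1.70% and 2.09% in RI 1, 2, 4 and 5. The mean share was 4.60 ± 1.44% in ICI and 1.96 ± 0.431% in RI (SD, n = 4 each), with no overlap. Of the 28 pairs of members, 6 had per-tumour log2 ratios that did not overlap between the groups, and all 6 were pairs with Gbp8. They share the Gbp8 values and are not separate results. Among single genes tested, all RI values lay above all ICI values for 16.7% and below them for 11.2%. The share over pairs of all genes was not computed. The ratio of Gbp4 to Gbp8 on the log2(FPKM + 1) scale went from 1.28 ± 0.299 in ICI to 2.66 ± 0.425 in RI, and that of Gbp9 to Gbp8 moved by 0.74. By exact permutation, two-sided over 70 regroupings, these 6 pairs had p = 0.0286, the smallest the design allows, and adjusted p = 0.133 over the 28 pairs, so 0 pairs passed adjustment. The pair of Gbp5 and Gbp8 overlapped between the groups, with p = 0.0571 by the same exact permutation test. Pairs without Gbp8 had p of 0.0571 or more by that test. Ratios of 2 genes in 1 tumour do not depend on how that library was scaled, apart from the pseudocount.

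The rise in RI was uneven between tumours of 1 group. The summed FPKM of the 8 members was 160, 211, 242 and 105 in ICI 1 to 4, compared with 587, 338, 386 and 235 in RI 1, 2, 4 and 5. RI 5 thus lay just below ICI 3, and RI 1 was the highest. RI 1 was the highest of the 8 tumours for all 8 members, as for 12.4% of genes tested. ICI 4 was the lowest for 6 members (13.3% of genes tested), and both held for the same 6 members (2.93% of genes tested). RI 5 was the lowest RI tumour for 7 of the 8, with Gbp3 as the exception.

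**Figure D3:**
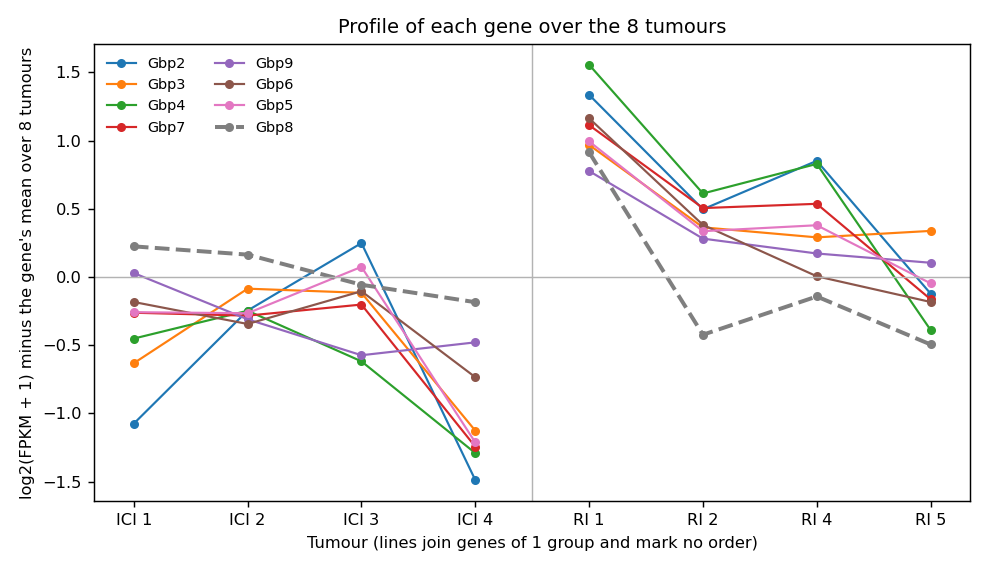
log2(FPKM + 1) of each of the 8 genes minus its own mean, by tumour; the lines join values of 1 gene within a group and mark no order. All 8 genes peak in RI 1, and Gbp8 (dashed) is the gene that lies below its mean in RI 2, RI 4 and RI 5 while 7 of 8 genes lie above theirs in RI 2.

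Epithelial and macrophage transcripts also differed between these tumours. The 6 epithelial tumour cell markers were Epcam, Krt8, Krt18, Krt19, Cdh1 and Cldn4. Their summed FPKM was 942, 1064, 1372 and 1981 in ICI 1 to 4. In RI 1, 2, 4 and 5 it was 799, 769, 759 and 1381. The tumours with the highest sum of their group, ICI 4 and RI 5, were those in which the members summed lowest. Across ICI 1, 2 and 3, however, both sums rose together, that of the members from 160 to 211 and 242. Of the 6 epithelial markers 3 were tested, 0 passed in limma and 0 had an unadjusted p under 0.05. The 7 macrophage and monocyte markers summed to 360 to 648 FPKM in ICI and 511 to 982 in RI, with RI 5 highest, and Adgre1 and Mrc1 rose. Of 6 NK cell markers Il2rb, the 1 tested, rose, and their sum was 2.65 to 7.81 FPKM in ICI and 7.91 to 14.8 in RI, with Klra8 under 0.1 FPKM in all tumours. T cell markers (7 genes, 3 tested) summed to 7.98 to 23.0 FPKM in ICI and 4.79 to 11.8 in RI, and Trac fell. Of 7 fibroblast markers 4 rose (sums 47.9 to 67.0 in ICI and 103 to 510 in RI). Beside each marker count stand the shares of all genes tested, 11.1% called higher in RI and 6.60% lower. Neutrophil markers summed to 19495 FPKM in ICI 1, to 249 to 602 in ICI 2, 3 and 4 and to 103 to 276 in RI, and S100a8 and S100a9 fell. Of the other 6 marker lists, dendritic and endothelial cell and adipocyte markers gave 0 calls in limma and 0 unadjusted p under 0.05, Igkc of the B and plasma cells and Hba-a1 and Hbb-bt of the red blood cells fell, and the muscle genes Ckm and Myh4 rose. The part of these cells in the differences of the guanylate-binding proteins was not tested.

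The family holds 3 more genes in the table, Gbp2b, Gbp10 and Gbp11, and all 3 averaged higher in RI. Gbp10 rose, from 2.94, 4.46, 4.12 and 1.87 FPKM in ICI 1 to 4 to 22.2, 8.16, 13.2 and 7.68 in RI 1, 2, 4 and 5, with no overlap. Its log2 difference of 1.59 ± 0.33 (SE; adjusted p = 0.0187, limma) was above that of each of the 8 members. However, 84.1% of its words of 50 bases are shared with another gene, mostly Gbp6, so these 2 values cannot be taken as separate. Gbp2b, the neighbour of Gbp2 and once named Gbp1, was abundant at 68.9 ± 33.4 FPKM in ICI and 144 ± 66.6 in RI (SD, n = 4 each) and did not pass (log2 difference 1.06, adjusted p = 0.102, limma). Gbp11, annotated as a polymorphic pseudogene, was at 0.512 ± 0.442 and 1.33 ± 0.757 FPKM and did not pass (adjusted p = 0.176, limma).

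Of 59 tested genes in 8 lists of family and pathway genes, 9 rose and 0 fell, and Gbp10 is 1 of the 9. The shares to set beside this and each list count below are those of all genes tested, 11.1% called higher in RI and 6.60% lower. All 9 immunity-related GTPases, which act with guanylate-binding proteins on pathogen vacuoles, had a positive log2 difference (median 0.90), 3 rose, 0 fell and 6 did not pass. Of the 9, 6 had an unadjusted limma p under 0.05 with RI higher, as had 20.4% of all genes tested. Gm12250, the gene of Irgb10, was at 5.53 to 15.5 FPKM in ICI and rose to 26.9 to 67.4 in RI (log2 difference 1.88, adjusted p = 0.0150, limma). Irgm2 rose by 1.57 (adjusted p = 0.0226, limma) and Gm4951 by 1.12 (adjusted p = 0.0234, limma). Of 8 tested interferon gamma signal genes Jak1 and Jak2 rose, by 0.49 and 0.84 (adjusted p = 0.0339 and 0.0173, limma), and 0 fell. The list median was 0.44, 7 of the 8 had a positive difference and 4 had an unadjusted limma p under 0.05. Ifngr2 was among these 4 and did not pass (0.53, adjusted p = 0.138, limma). With trends on gene length and GC content removed, the Jak1 difference was 0.24 and did not pass (adjusted p = 0.123, limma).

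The cytokine itself was scarce. Ifng was at 0.563, 0.613, 0.463 and 0.508 FPKM in ICI 1, 2, 3 and 4 and at 1.31, 0.480, 0.149 and 0.109 in RI 1, 2, 4 and 5. RI 1 had the highest value, as for the members, whereas RI 4 and RI 5 were below every ICI tumour. These values rest on 7 fragments in RI 4 and 6 in RI 5, against 20 to 46 in the other tumours, so counting error is large. Below the filter on low values, Ifng had a log2 difference of -0.09 (two-sided exact permutation p = 0.886). Irf1, a transcription factor that switches on these genes, was at 33.4 to 63.1 FPKM in ICI and 36.9 to 95.05 in RI (log2 difference 0.19, adjusted p = 0.671, limma).

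Of 8 tested type I interferon signal genes Irf7 and Usp18 rose, 0 fell and the median was 0.44. A positive difference was seen in 5 of the 8, and 4 had an unadjusted limma p under 0.05. Stat2 (0.58, adjusted p = 0.105, limma) and Isg15 (0.79, adjusted p = 0.117, limma) were among these 4 and did not pass. Irf7, the factor that amplifies type I interferon, was at 18.1, 18.1, 18.9 and 10.1 FPKM in ICI 1 to 4 and at 48.2, 37.4, 24.7 and 78.9 in RI 1, 2, 4 and 5 (log2 difference 1.396, adjusted p = 0.0263, limma). RI 5 was thus the highest RI tumour for Irf7, while it was the lowest for 7 members. Usp18, a brake on the type I receptor, rose by 1.55 (adjusted p = 0.0117, limma) and had the same RI tumour on top. Of 10 further interferon gamma targets 0 passed in limma or in limma voom on recovered fragments, 2 had an unadjusted limma p under 0.05, and the list median was 0.37. The 2 were Tap1, the peptide transporter (log2 difference 0.62, adjusted p = 0.115, limma), and the chemokine Cxcl10, whose RI values were all above the ICI values (1.05, adjusted p = 0.0931, limma).

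The inflammasome partners were not called higher. Of 7 tested inflammasome and pyroptosis genes 0 passed in limma, 2 had an unadjusted p under 0.05, and all 7 had a negative log2 difference (median -0.48). ICI 1, the library with the most neutrophil marker RNA (19495 FPKM), was the highest of the 8 tumours for all 7, and without it 6 of 7 were negative, with a median of -0.16 and 0 calls in limma. The part of neutrophil RNA in these values was not tested. Limma voom on recovered fragments called 1 of them, Il1b, lower. Casp1 was at 15.5 to 21.6 FPKM in ICI and 11.3 to 14.8 in RI, with all RI values below the ICI values, as for 11.2% of genes tested (log2 difference -0.48, adjusted p = 0.0575, limma), and Il1b had a log2 difference of -1.57 (adjusted p = 0.0536, limma). Casp4, the sensor of cytosolic lipopolysaccharide that the proteins help to activate, had -0.56 (adjusted p = 0.225, limma), which became -0.28 without ICI 1 and -0.10 without ICI 1 and RI 4. Of 9 ATG conjugation and GABARAP genes, which direct the GTPases to membranes, 0 passed in limma or in limma voom on recovered fragments, 2 had an unadjusted limma p under 0.05 (Atg3 and Atg16l1), and the median was -0.23. ICI 1 was the highest tumour for 5 of the 9, and without it the median was -0.15. Of 5 prenylation enzymes Icmt, the methyltransferase that finishes the lipid-anchored end, rose by 0.75 (adjusted p = 0.0193, limma), and 4 did not pass.

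**Figure D4:**
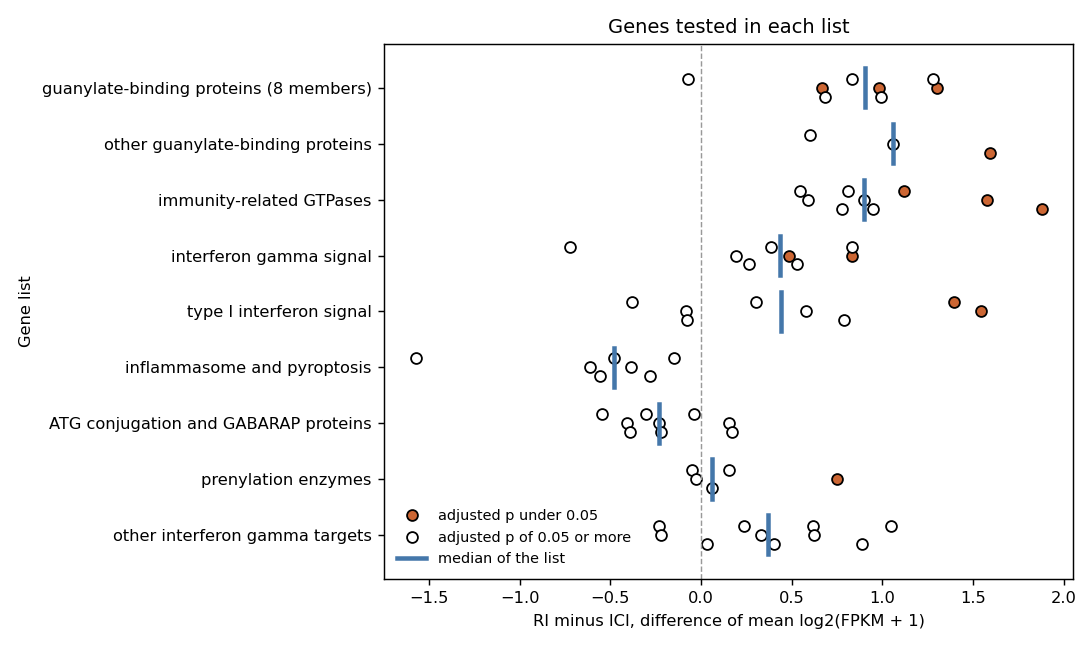
Difference of mean log2(FPKM + 1), RI minus ICI, for each gene tested in the 8 members and 8 lists of companion genes; filled points passed at adjusted p under 0.05 and the bar is the list median. The members and the immunity-related GTPases have medians near 0.90, and the 7 inflammasome genes all lie below 0 (6 of 7 without ICI 1).

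The genes whose profile over the 8 tumours was nearest to the mean profile of the members, by root mean square distance of centred log2 values, were Irgm1 (0.09), Il18bp (0.13), Cd274 (0.14), Ifi47 (0.15), Tap1 (0.15) and Tgtp2 (0.16), against a median of 0.62 over all genes tested. Taken singly, Gbp7 was nearest to Tgtp2 (0.06), Gbp5 to Il18bp (0.09), Gbp6 to Tap1 (0.11), Gbp2 to Gbp2b (0.14) and Gbp4 to Gbp7 (0.26). Gbp3 was nearest to C1s2 (0.13), Gbp9 to Tnfrsf21 (0.11) and Gbp8 to Slamf9 (0.19). The distance of Gbp8 from the members' mean profile was 0.51, the largest of the 8, although the mean includes it.

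The count of 3 called members rested on the tumours and the scaling used. It was 0 without ICI 4, RI 1, RI 2 or RI 4, and 1 (Gbp3) without ICI 2. It was 2 without ICI 1 (Gbp3 and Gbp9), ICI 3 (Gbp2 and Gbp3) or RI 5 (Gbp4 and Gbp7), so the genes called changed as well. With TPM and without a filter on low values the count was 0. TPM divides by the summed FPKM, of which 3 ribosomal RNA related models took 60.7% in RI 4. With TPM the log2 differences of Gbp3, Gbp4 and Gbp9 were 1.09 ± 0.44, 1.42 ± 0.44 and 0.78 ± 0.43 (SE). In the analysis reported they were 0.98 ± 0.26, 1.304 ± 0.39 and 0.67 ± 0.19 (SE). The count was 1 (Gbp3) after the trends on gene length and GC content were removed, and 5 in limma voom on recovered fragments. The log2 difference of the 7 members other than Gbp8 stayed above 0 in each of the 24 alternatives, with values from 0.41 to 1.85, while that of Gbp8 changed sign in 7 of them, TPM among them.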

How the data were processed

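RNA of 8 whole tumours had been sequenced, and the deposited table holds FPKM values, 1 column per tumour. HISAT2 and GRCm38 (mm10) are named per the submitters' processing notes; the sources used here do not give the counter, its annotation or any filter. Groups and numbers come from the titles.

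Members and lists were chosen with earlier results of these data known. A gene was tested if 4 or more tumours reached 1 FPKM. Values were log2(FPKM + 1), with pseudocount 1, and the test was limma 3.58.1 in R 4.3.3 (trend, robust), two-sided, RI minus ICI, with Benjamini-Hochberg adjustment over 13439 genes and a threshold of 0.05. The scale understates changes of low genes. Pairs of members and Ifng were compared by exact permutation over 70 regroupings. The test was checked on simulated data.

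Exon lengths, overlaps and shared words came from GENCODE M21, which matched 31378 rows by identifier. The steps of low FPKM values, multiplied by exon length, gave fragments: 98.6% to 98.8% of values up to 50 fragments lay within 0.05 of a whole number, with totals of 27013100 to 42622700. They served for depth and for limma voom. The closest pair of libraries differed by a chi-square of 29.98 for each gene, above sampling noise, so 8 were counted. ICI 1 and RI 4 stood apart: 14750 genes reached 1 FPKM in ICI 1 against 12682 to 13575 elsewhere, and 3 ribosomal RNA related models took 60.7% of the summed FPKM in RI 4 against 0.968% to 2.25%. The groups also differed as a whole. Mitochondrial genes took 4.41% to 8.21% of the fragments in ICI and 2.72% to 3.24% in RI, with no overlap. The summed FPKM was 429167 to 494399 in ICI, 358243 to 367797 in RI 1, 2 and 5, and 717092 in RI 4. The part of these library differences in the results was not tested.

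Named were all members and family genes, up to 4 genes of each other list with the smallest p, Ifng, Irf1 and the nearest profiles; 1 further gene of the rule is not reported here. Alternatives were other pseudocounts, filters, scalings, weights and variance models, length and GC correction, voom, the replicate number as a block, and tumours left out; scaling without the ribosomal RNA related models was added after the data were seen.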

Additional observations from a re-analysis of the deposited data

Results flagged for a closer look

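In 94 groups of 4 tumours (47 genes named), the highest or lowest tumour was set against the others, and 1 group in 20 is flagged by chance. A gap to the nearest tumour, as a share of the whole range, above Dixon's critical value was found 12 times. Among the members, Gbp3 in RI 1 (77.3 FPKM, others 47.9 to 50.5) and Gbp8 in RI 1 (14.7, others 4.93 to 6.56) were high, and Gbp7 in ICI 4 (9.20, others 18.8 to 19.99) was low. Cd274 was high in RI 1 (27.6 FPKM, others 10.3 to 13.2). Tgtp2 and Irf7 were low in ICI 4 (17.3 FPKM against 33.5 to 36.6, and 10.1 against 18.1 to 18.9). In ICI 1, Casp4 (15.8 FPKM, others 6.32 to 7.64), Atg3 (26.0, others 11.3 to 13.2), Atg7 (9.06, others 3.92 to 4.23), Map1lc3b (24.0, others 11.1 to 12.4) and Tnfrsf21 (5.02, others 2.72 to 2.97) were high. Atg7 was low in RI 4 (2.67 FPKM, others 3.78 to 3.90).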

How the results depend on the processing

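Among members, 3 rose in the analysis reported. The count was 0 without a filter, with TPM, with the replicate block and with the block plus length and GC correction. With that correction alone it was 1 (Gbp3), and without ICI 1 and RI 4 it was also 1 (Gbp9). It was 5 with a mean FPKM of at least 5, quantile normalization, array weights or voom. It was 7 when scaled without the ribosomal RNA related models, which moved the median of all genes to 0.36. Leaving out 1 tumour gave 0 to 2. Of companion genes 9 rose: 1 without a filter, 5 with TPM, 18 with array weights, 26 in the ribosomal scaling, 0 with the block with or without the correction, and 2 to 11 with 1 tumour left out. Falls among them went from 0 to 1 with a pseudocount of 5, a mean FPKM of at least 5, TPM, array weights, plain eBayes, voom or the length and GC correction, and to 3 with upper-quartile, quantile or median scaling. Of all genes 2373 were called: 241 without a filter, 310 with TPM, 4319 with array weights, 22 with the block, 3 with block and correction, 5473 in the ribosomal scaling, and 336 to 2693 with 1 tumour left out. Upper-quartile scaling gave 53.4% of calls higher in RI and median centring 48.0%, against 62.6%. Signs turned for Gbp8 (-0.073 on the log2 scale in the analysis reported), which had 0.00510 with TPM, 0.00623 with array weights, 0.0481 with the replicate block, 0.0246 without ICI 1 and RI 4, 0.296 in the ribosomal scaling and -0.390 to 0.0793 with 1 tumour left out. They turned for Pggt1b (0.0383, 0.00747, 0.0591 and 0.285 with TPM, array weights, without ICI 1 and RI 4 and in the ribosomal scaling, and -0.0950 to 0.0355 with 1 tumour left out), Atg16l1 (0.0586 in the ribosomal scaling) and Fnta (-0.0111 with the block, -0.0699 with block and correction, -0.00833 to 0.209 with 1 tumour left out). With 1 tumour left out they also turned for Irf1 (-0.0389 to 0.408), Slamf9 (-0.219 to 0.266) and Ifng (-0.314 to 0.0401). The cause was not tested. Replicate numbers 1, 2 and 4 occur in both groups, and the labels do not say what a shared number means. Same-numbered tumours deviated with correlations of -0.0923, -0.120 and -0.124, and none of the 3 correlated best with its own number. With 3 pairs, and with ICI 1 and RI 4 among them standing apart as libraries, this cannot show whether a shared number marks a shared origin.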
